A study of Mus musculus with 4 samples.

Results

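The genes described here encode the TGFβ ligands (Tgfb1, Tgfb2 and Tgfb3), their cell surface receptors (Tgfbr1, Tgfbr2, Tgfbr3 and Eng) and the latency proteins that tether the secreted ligands (Ltbp1, Ltbp3 and Ltbp4). They were taken by symbol, each through the only probe set that the array's gene table assigns to it alone, and all 10 were measured among 19938 genes. Total RNA came from Py2T cells, a mouse breast cancer line grown in medium with 10% FCS, and was read on 4 Affymetrix arrays. The untreated group has 2 arrays of cells given no TGFβ, and the TGFβ group has 2 arrays of cells given 2 ng/ml TGFβ for 5 days. The labels name no genotype or further agent for either group and call the samples biological replicates of this line. Nothing more is said of the cultures, so p-values measure only the spread between these samples.

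TGFβ ligands are secreted as latent complexes, in which the cleaved propeptide stays wrapped around the mature dimer and an LTBP ties it to the extracellular matrix. Once released, the ligand joins a pair of type II receptors (Tgfbr2), which phosphorylate the type I receptor kinase (Tgfbr1), and this in turn phosphorylates Smad2 and Smad3. In mammary epithelial cells the pathway restrains growth and can drive an epithelial to mesenchymal transition, the process this cell line serves to model. The arrays read transcripts only, so they show neither the TGFβ protein added to the medium nor how much ligand was active.

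After TGFβ, the ligand gene Tgfb1 rose 1.53-fold, while the type II receptor Tgfbr2 fell 1.93-fold and the type I receptor Tgfbr1 fell 1.49-fold. The other 7 genes did not pass the test, among them the ligands Tgfb2 and Tgfb3, the co-receptors Tgfbr3 and Eng, and all 3 latency proteins. By role, 1 of 3 ligands rose, 2 of 4 receptors fell and 0 of 3 latency proteins were called. In RNA from whole cultures, fewer cells with a transcript and less of it per cell cannot be told apart. Calls rest on limma p-values adjusted over all 19938 genes, with 0.05 as the limit. Of all genes tested 13.6% were called, 6.49% higher and 7.15% lower. The median difference of the 10 genes was -0.05 on the log2 scale, against 0.01 over all genes, and the median size of the difference without regard to sign was 0.19 against 0.10. Genes of low signal are part of these shares and medians over all genes. With the 50% of genes of lowest mean left out, 2454 genes were called, so a larger share of brighter genes was called. Only 3 of the 10 had a mean under 7, so the shares over all genes are a low background for them and for brighter lists below.

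Values are on the authors' RMA log2 scale, where 1 unit is a 2-fold difference, and a value describes 1 probe set over arrays rather than the abundance of a gene relative to another. Array medians lay between 6.74 and 6.76, and values under 7 are called dim here because no detection calls were used. The number of arrays limits the precision, and some calls were lost whichever array was left out. When untreated replicate 1 or 2 or TGFβ replicate 1 was left out, 2 of the 10 genes were called, and when TGFβ replicate 2 was left out, 1 was. Over all genes the counts were 1535, 1764, 1811 and 2260 when each array was dropped in that order, against 2720 with all 4. Such fits take the spread of the lone array from the remaining pair. The epithelial origin of the cells was visible in their markers, since all 8 listed epithelial genes were bright in untreated cells, with a list mean of 11.9 and 11.8. That mean was 10.5 and 10.8 after TGFβ, and 5 of the 8 fell, against 7.15% of all genes tested.

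**Figure D1:**
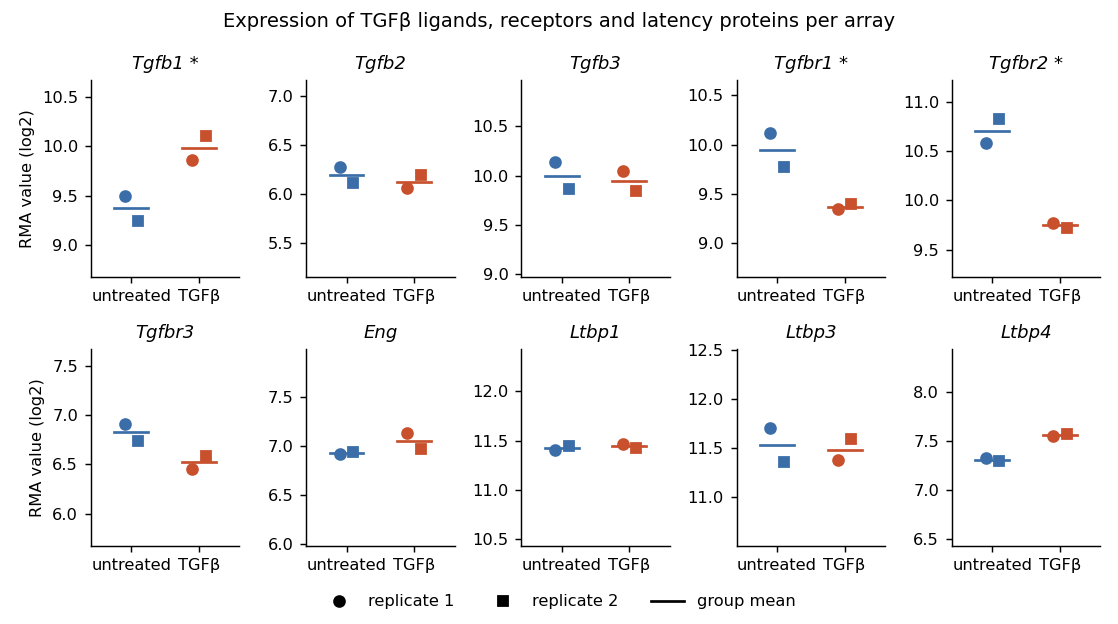
Each panel plots the RMA log2 value of 1 gene on each of the 4 arrays, with untreated arrays in blue, TGFβ arrays in orange, replicate 1 as circles, replicate 2 as squares and the group mean as a line; every panel spans 2 log2 units, and an asterisk marks a call. The TGFβ arrays of Tgfb1 lie above both untreated arrays and those of Tgfbr1 and Tgfbr2 lie below them, while the groups of Tgfb2, Tgfb3, Ltbp1 and Ltbp3 overlap.

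The promoters of the 3 called genes are shown because these genes passed the test. Each line gives the 250 bases before the annotated start site, on the gene's own strand, from RefSeq in build GRCm38.p6. Capitals mark CAGAC, the core of Smad binding elements, and GGGCGG, the GC box bound by Sp1 type factors, on either strand.
Tgfb1, chr7:25686752-25687001, plus strand: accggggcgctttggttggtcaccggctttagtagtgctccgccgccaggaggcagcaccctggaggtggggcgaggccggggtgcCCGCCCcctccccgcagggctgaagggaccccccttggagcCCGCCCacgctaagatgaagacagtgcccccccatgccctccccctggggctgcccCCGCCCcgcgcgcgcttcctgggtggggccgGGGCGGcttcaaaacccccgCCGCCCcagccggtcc
Tgfbr1, chr4:47352972-47353221, plus strand: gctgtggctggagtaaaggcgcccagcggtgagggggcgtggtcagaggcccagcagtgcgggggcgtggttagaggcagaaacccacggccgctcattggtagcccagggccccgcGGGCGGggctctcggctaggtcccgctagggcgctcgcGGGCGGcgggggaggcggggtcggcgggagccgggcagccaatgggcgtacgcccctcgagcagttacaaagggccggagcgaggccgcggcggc
Tgfbr2, chr9:116175364-116175613, minus strand: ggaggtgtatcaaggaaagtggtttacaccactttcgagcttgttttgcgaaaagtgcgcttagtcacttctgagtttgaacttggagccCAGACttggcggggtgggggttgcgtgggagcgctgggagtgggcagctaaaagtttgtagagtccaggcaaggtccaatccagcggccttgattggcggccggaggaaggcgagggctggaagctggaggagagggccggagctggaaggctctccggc

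The window of Tgfb1 was 75.2% G and C and held 5 GC boxes, and that of Tgfbr1 was 74.8% G and C and held 2. The window of Tgfbr2, at 58.4% G and C, held 0 GC boxes and 1 CAGAC, 160 bases before the start. The median over all promoters was 52.4% G and C. Of 32851 promoters in the table, 32.7% held GGGCGG and 42.2% held CAGAC in a window of this length, so neither motif is rare. None of the 3 windows held CACCTG, the E-box form that Zeb and Snail factors bind (17.2% of promoters), TGANTCA, an AP-1 site (6.75%), or TATAAA, a core promoter element (12.4%), on either strand. Tgfbr1 has another listed start, at chr4:47385966-47386215, with 1 CAGAC and 0 GC boxes. Entries were found for 8 of the 10 genes, without Tgfb3 and Tgfbr3. Windows of genes that were not called held these motifs too. CAGAC was in those of Tgfb2, Eng, Ltbp1 and Ltbp3, and those of Ltbp4 held 3, 5 and 7 GC boxes. A match is a description of these letters and was not tested for binding.

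Among the ligands, Tgfb1, the isoform most widely expressed in epithelia and tumours, was read at 9.50 and 9.25 in untreated cells and at 9.86 and 10.10 after TGFβ. Both TGFβ arrays lay above both untreated arrays, with a gap of 0.37 between the nearest. The group means were 9.37 ± 0.18 and 9.98 ± 0.17 (log2, SD, n = 2), and the fitted difference was 0.61 ± 0.12 (SE, 95% interval 0.30 to 0.92, limma adjusted p = 0.029). The call was lost without untreated replicate 2 (0.49, limma adjusted p = 0.11) or TGFβ replicate 2 (0.49, limma adjusted p = 0.084).

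Tgfb3, the isoform known from mammary gland and palate development, was read at 10.14 and 9.87 in untreated cells and at 10.05 and 9.85 after TGFβ. The groups overlapped, replicate 1 was the higher array in each, and the difference of -0.05 had a 95% interval from -0.35 to 0.25. That interval allows a change between 0.782-fold and 1.19-fold. Tgfb2, an isoform that binds the type II receptor weakly without a co-receptor, was dim on all 4 arrays, with 6.28 and 6.12 untreated and 6.06 and 6.20 after TGFβ. Its groups overlapped too (difference -0.07, 95% interval -0.30 to 0.16), and a change in so dim a probe set would be hard to detect.

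The ligands were also compared within arrays, where a shift of a whole array cancels. The log2 ratio of Tgfb1 to Tgfb3 was 0.67 higher in the TGFβ arrays, with no overlap between the groups. With so few arrays the smallest two-sided p of an exact permutation test is 0.333, which is the p of this ratio and of the other 4 ratios compared, so whether the ligands changed unequally was not settled.

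Tgfbr2, the constitutively active kinase that binds the ligand first, was read at 10.58 and 10.82 in untreated cells and at 9.77 and 9.72 after TGFβ. The TGFβ arrays lay close together and below both untreated arrays, with 0.81 between the nearest arrays of the groups. The means were 10.70 ± 0.17 and 9.75 ± 0.04 (log2, SD, n = 2), a difference of -0.95 ± 0.10 (SE, 95% interval -1.20 to -0.70, limma adjusted p = 0.0037). Among the 10 genes this was the largest difference in size, larger than that of 96.1% of all genes tested. Without any 1 of the 4 arrays it lay between -1.07 and -0.83 and stayed called, with a highest limma adjusted p of 0.014.

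Tgfbr1, the kinase also known as ALK5 that carries the signal to Smad2 and Smad3, was read at 10.12 and 9.77 in untreated cells and at 9.34 and 9.40 after TGFβ. The untreated arrays differed by 0.35 and the TGFβ arrays by 0.06, and the groups did not overlap. The means were 9.95 ± 0.24 and 9.37 ± 0.04 (log2, SD, n = 2), a difference of -0.58 ± 0.12 (SE, 95% interval -0.88 to -0.27, limma adjusted p = 0.035). The call was lost without untreated replicate 1 (-0.40, limma adjusted p = 0.099), TGFβ replicate 1 (-0.55, limma adjusted p = 0.12) or TGFβ replicate 2 (-0.60, limma adjusted p = 0.081). The log2 ratio of Tgfbr2 to Tgfbr1 was 0.46 and 1.05 in untreated arrays and 0.43 and 0.33 in TGFβ arrays, so whether the type II receptor fell further was not settled (exact two-sided permutation p = 0.333).

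The co-receptors hold ligand at the surface and have no kinase of their own. Tgfbr3, or betaglycan, which presents Tgfb2 to the type II receptor, was dim, at 6.91 and 6.74 in untreated cells and 6.45 and 6.59 after TGFβ. Its groups did not overlap, but the difference of -0.31 (95% interval -0.54 to -0.07) missed the threshold at a limma adjusted p of 0.10. Eng, or endoglin, the co-receptor best known from endothelial cells, was read at 6.91 and 6.93 untreated and 7.13 and 6.96 after TGFβ. Its difference of 0.12 (95% interval -0.09 to 0.34, limma adjusted p = 0.49) did not pass, and its interval includes 0. The endothelial markers measured beside it (Pecam1, Cdh5, Kdr, Tek, Tie1, Emcn, Cldn5 and Vwf) were all dim in both groups and 0 of 8 were called, with list means of 5.86 and 5.88 untreated and 5.85 and 5.93 after TGFβ.

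Of the latency proteins none was called. Ltbp1, which binds the latent complex of all isoforms and anchors it to fibronectin and fibrillin, was bright and nearly constant, at 11.40 and 11.44 untreated and 11.46 and 11.42 after TGFβ. The difference of 0.02 had a 95% interval from -0.16 to 0.20, which allows at most a 1.15-fold rise. Ltbp3, which aids secretion of latent TGFβ, was also bright, at 11.71 and 11.36 untreated and 11.38 and 11.59 after TGFβ. Its untreated arrays differed by 0.35, far more than the difference between groups of -0.05 (95% interval -0.39 to 0.29).

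Ltbp4, which binds latent Tgfb1 and supports elastic fibre assembly, was read at 7.33 and 7.29 untreated and at 7.55 and 7.57 after TGFβ. Replicates differed by 0.03 and 0.02 and the groups did not overlap. The difference of 0.25 ± 0.07 (SE, 95% interval 0.07 to 0.43) nevertheless missed the threshold at a limma adjusted p of 0.079, and passed only after the values were quantile normalized again (0.28, limma adjusted p = 0.046). In all, 6 of the 10 genes had groups that did not overlap, against 52.6% of all genes tested, so a lack of overlap is common here.

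**Figure D2:**
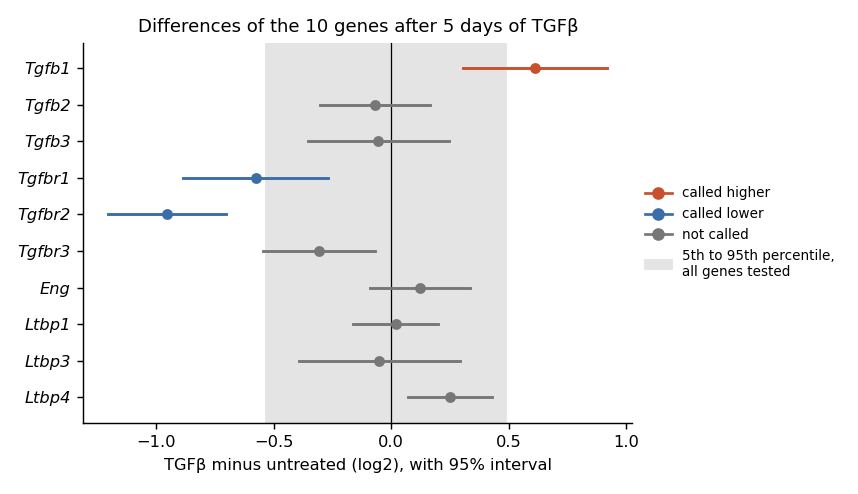
Points give the fitted difference of each gene, TGFβ minus untreated on the log2 scale, with its 95% interval; the grey band runs from the 5th to the 95th percentile of the differences of all genes tested, -0.53 to 0.49. Tgfb1 lies to the right of the band, Tgfbr1 and Tgfbr2 to the left of it, and the points of the other 7 inside it.

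**Figure D3:**
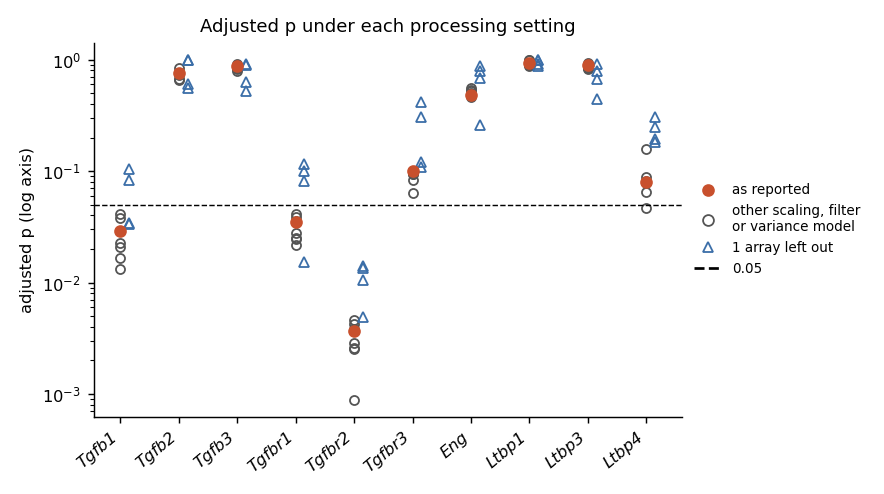
The adjusted p of each gene (log axis) is shown as reported (filled), under other scalings, filters and variance models (open circles) and with 1 array left out (triangles); the dashed line is 0.05. All points of Tgfbr2 lie below the line, those of Tgfb1 and Tgfbr1 cross it when an array is left out, and 1 point of Ltbp4 lies below it. The fit with the replicate number as a block is not plotted. In that fit Tgfb1 and Tgfbr1 were not called (limma adjusted p = 0.089 and 0.077).

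The replicates of the called receptors differed in spread between groups. In untreated cells the SDs of Tgfbr1 and Tgfbr2 were larger than those of 95.8% and 89.3% of genes, and in TGFβ-treated cells the SDs were larger than those of only 30.6% and 27.7%. A wide untreated spread was not particular to them, since Tgfb1, Tgfb3 and Ltbp3 lay above 90.1%, 91.9% and 95.9% of genes. In TGFβ-treated cells these 3 lay above 86.0%, 79.1% and 81.3%. The untreated SDs of Eng, Ltbp1 and Ltbp4 were larger than those of only 10.8%, 29.0% and 22.3%. With 2 arrays a group an SD is itself poorly known, and the difference in spread was not tested.

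The genes whose pattern over the 4 arrays lay nearest to each called gene were found by Euclidean distance between log2 values centred on each gene's mean, among 10343 genes with a mean of at least 7. For Tgfbr2 they were Itga6, the integrin subunit of hemidesmosomes (distance 0.038), Nbeal2 (0.062) and Fhdc1 (0.076), with differences of -0.97, -0.95 and -1.03. Pstpip1 (0.036), Cmtm3 (0.042) and Slc1a4 (0.079) lay nearest to Tgfb1, with differences between 0.58 and 0.63. For Tgfbr1 they were Mmut (0.062), Wdsub1 (0.065) and Mrgpre (0.065). A distance over 4 arrays is a description only, and 39, 88 and 196 genes lay within 0.2 of Tgfbr2, Tgfb1 and Tgfbr1.

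Genes for storage, activation and extracellular binding of TGFβ moved in both directions. Of 25 measured, 8 rose, 3 fell and 14 did not pass, with a median difference of 0.10. Over all genes tested 6.49% were called higher and 7.15% lower. The integrin subunit Itgb3, which pairs with Itgav in a receptor that can bind latent TGFβ, was read at 6.88 and 7.14 in untreated cells and at 10.64 and 10.18 after TGFβ. It rose 10.6-fold (log2 difference 3.40 ± 0.17 SE, limma adjusted p = 4.9e-04), from an untreated level near the limit for dim probe sets, which limits the fold.

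Lrrc32, or GARP, a membrane protein that holds latent TGFβ on the cell surface in place of an LTBP, was read at 6.25 and 6.65 untreated and at 8.99 and 9.21 after TGFβ. Its rise of 2.65 ± 0.15 (SE, limma adjusted p = 6.2e-04) also started from a dim level. Furin, the protease that cleaves the TGFβ propeptide, rose 2.20-fold, from 11.01 and 10.85 to 12.22 and 11.92 (limma adjusted p = 0.0039). Its relative Pcsk6, or PACE4, fell by 1.69 ± 0.13 (SE) on the log2 scale, from 9.61 and 9.64 to 7.75 and 8.12. Related proprotein convertases thus moved in opposite directions, with no overlap between groups in either gene.

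Itgb6, the epithelial partner of Itgav that activates latent TGFβ, went the other way from Itgb3, from 9.34 and 9.36 to 6.34 and 7.07, where it fell by 2.64 ± 0.23 (SE) to a mean of 6.70, a dim level. Itgb8, the third such partner, was at 7.72 and 7.19 untreated and at 6.89 and 7.05 after TGFβ. It missed the threshold (-0.49, limma adjusted p = 0.15) and passed without untreated replicate 2 (-0.76, limma adjusted p = 0.021), while without untreated replicate 1 the difference was -0.23 (limma adjusted p = 0.42). Itgav itself differed by -0.12 (95% interval -0.40 to 0.17). Thbs1, the matrix protein thrombospondin that can activate latent TGFβ, fell by 0.59 (limma adjusted p = 0.012), a call lost without untreated replicate 1 (-0.56, limma adjusted p = 0.061). Ltbp2, the LTBP that does not bind latent TGFβ, differed by 0.10 (95% interval -0.16 to 0.36).

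**Figure D4:**
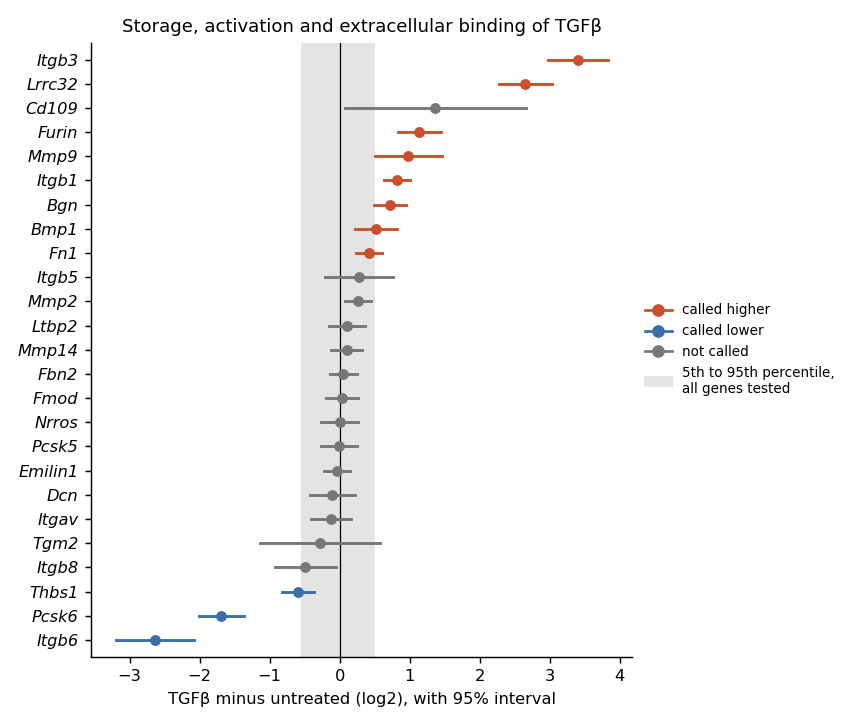
Points give the difference, TGFβ minus untreated on the log2 scale, of the 25 measured genes for storage, activation and extracellular binding of TGFβ, with 95% intervals, and the grey band is the 5th to 95th percentile of all genes tested. Itgb3 and Lrrc32 lie farthest right, at 3.40 and 2.65, and Itgb6 and Pcsk6 farthest left, at -2.64 and -1.69.

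The fall of Tgfbr1 and Tgfbr2 was set beside the other receptors of the superfamily, which bind activins, BMPs and related ligands. Of 11 measured, including the decoy receptor Bambi, 1 rose, 0 fell and 10 did not pass, and 5 were dim in both groups. Over all genes tested 13.6% were called and 7.15% were lower, so counts this small are near the background. Acvr1, a type I receptor for BMPs and activins, rose by 0.63 ± 0.09 (SE, limma adjusted p = 0.0080), from 9.29 and 9.25 to 9.99 and 9.83. The count was 2, both higher, without TGFβ replicate 2.

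Proteins that bind, sort or modify the receptors and Smads showed 4 rises and 5 falls among 20, against 6.49% and 7.15% of all genes tested. Dab2, an adaptor of receptor endocytosis, rose from 9.58 and 9.73 to 10.44 and 10.46 (0.79, limma adjusted p = 0.0037). Dab2 has 2 probe sets, and their mean rose by 0.44 (limma adjusted p = 0.015). Usp11, a deubiquitinase reported to act on Tgfbr1, rose by 1.13. Ppp1r15a, or GADD34, a phosphatase subunit that Smad7 brings to Tgfbr1, rose by 0.79 (limma adjusted p = 0.022), a call lost without untreated replicate 1 (0.78, limma adjusted p = 0.079) or 2 (0.81, limma adjusted p = 0.065). The 3 largest falls were in Cav1, the caveolar coat protein (-0.92), Nedd4l, a ubiquitin ligase for activated Smads (-0.66), and Adam17, the sheddase that can release Tgfbr1 from the surface (-0.62).

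Of 14 Smads and Smad corepressors 6 rose, 0 fell and 8 did not pass, against 6.49% higher and 7.15% lower over all genes tested. Fewer of them were called when any 1 array was left out. Smad7, which directs ubiquitin ligases to Tgfbr1, rose by 0.99 ± 0.08 (SE), from 10.18 and 10.21 to 11.26 and 11.11. The corepressor Skil rose by 0.89 (limma adjusted p = 0.0059). Smad1 rose by 0.53 (limma adjusted p = 0.0087), and its adjusted p was 0.051 without untreated replicate 1 (0.51).

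**Figure D5:**
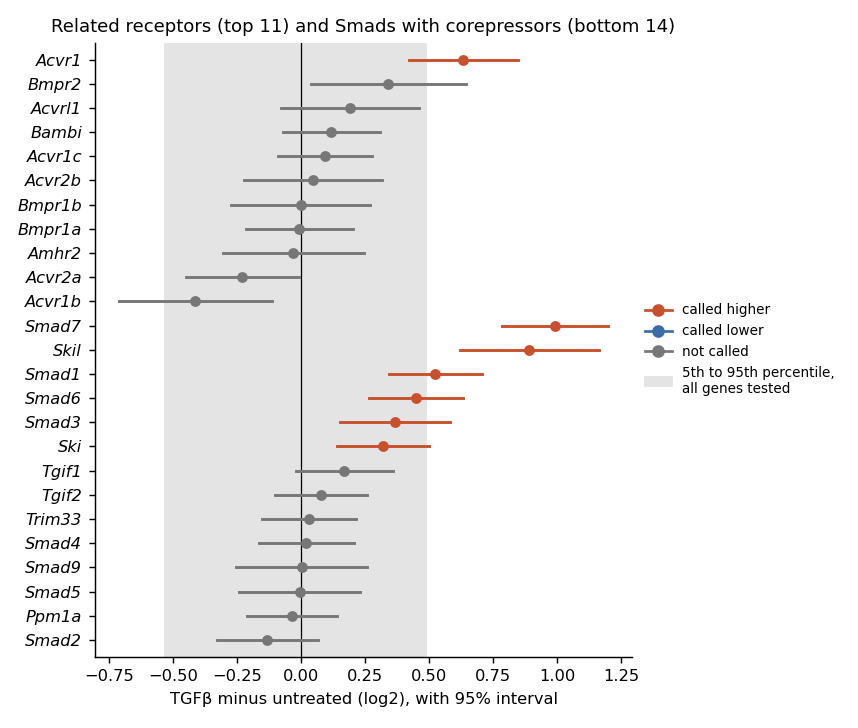
Points give the difference, TGFβ minus untreated on the log2 scale, of 11 related receptors (top) and 14 Smads and corepressors (bottom), with 95% intervals, and the grey band is the 5th to 95th percentile of all genes tested. Acvr1, at 0.63, is the called receptor, and the 6 called genes of the lower block all lie to the right of 0, led by Smad7 at 0.99.

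A list of genes widely used to read TGFβ signalling showed 9 rises and 2 falls among 15 measured, several of them shared with the lists above. Over all genes tested the shares were 6.49% higher and 7.15% lower. The NADPH oxidase Nox4 (2.85) and the transcription factor Snai1 (1.24) had the largest rises besides Smad7. Nox4 was at 7.34 and 6.68 in untreated cells, near the limit for dim probe sets, which limits its fold. The helix-loop-helix inhibitors Id3 (-1.19) and Id1 (-0.80) fell. Markers of other cell types were measured beside these genes. Of 8 fibroblast markers 2 rose, Pdgfrb by 1.01, from a dim 6.74 and 6.73 untreated, and Col1a1 by 0.46. Another 4 were dim in both groups. The list means were 6.35 and 6.37 untreated and 6.62 and 6.71 after TGFβ. Of 7 measured leukocyte markers 0 were called and 5 were dim in both groups, with list means of 6.45 and 6.25 untreated and 6.03 and 6.16 after TGFβ. The 2 others, named after their values were seen, were lower without passing and without overlap between groups. Cd68, a macrophage lysosomal protein also made by other cells, was at 9.63 and 8.87 untreated and at 7.60 and 8.33 after TGFβ (-1.29, 95% interval -2.07 to -0.50, limma adjusted p = 0.052). Csf1r, the receptor for macrophage colony stimulating factor, was at 7.90 and 7.35 untreated and at 7.08 and 7.27 after TGFβ (-0.45, limma adjusted p = 0.20). Ptprc, the pan-leukocyte marker, was dim on all 4 arrays, between 5.49 and 5.57. The part of other cells in the values above was not tested.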

How the data were processed

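Total RNA (100 ng) was amplified and labelled with WT kits per the labels' protocols. The authors deposited log2 values, 1 for each probe set and array, made with RMA in the R package oligo, per the submitters' processing notes. Which probe-set annotation and summary level they used is not stated in these notes. Of 35556 probe sets 21789 carry 1 symbol, and for 999 genes with several the brightest stood for the gene. All genes were fitted with limma 3.58.1 in R 4.3.3 (two-sided moderated test, 2 residual and 3.77 prior degrees of freedom, Benjamini-Hochberg adjustment). The fit was also run on simulated data whose noise was drawn from the fitted model. Such a run cannot show whether that model holds for these arrays. No filter was applied. Depth does not apply to arrays.

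The members and gene lists were chosen with earlier results of these data known. Named are all members, up to 3 called genes with the largest rises and falls of each list, a few preset genes (Ltbp2, Itgb6, Itgb8, Itgav, Thbs1, Furin and Smad7) and the 3 genes nearest to each of the 3 members with the largest differences. Pdgfrb, Col1a1, Cd68, Csf1r and Ptprc were named after their values were seen. Some list genes are not reported here. Alternatives were other scalings, filters and variance models, the replicate number as a block and each array left out.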

Additional observations from a re-analysis of the deposited data

How the results depend on the processing

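Tgfbr2 was called under the 12 settings other than the 2-fold minimum and the crossed pairing, Tgfb1 in 9 and Tgfbr1 in 8, each in its reported direction. With the replicate number as a block, 1624 genes and 1 of the 10 members were called, and Tgfb1 (0.612, limma adjusted p = 0.089) and Tgfbr1 (-0.576, limma adjusted p = 0.077) were not. Same-numbered arrays deviated with a correlation of -0.21 over genes. With so few arrays this value cannot settle whether the numbers pair them, and the labels do not say. With the crossed pairing, chosen after seeing the data, 3640 genes and 4 members were called. At a 2-fold minimum 677 genes and 0 members remained, since Tgfbr2 falls just short of it. With all arrays 5 of the 10 members had an unadjusted limma p under 0.05, as had 5200 of the 19938 genes tested. With 1 array left out, 1535 to 2260 genes and 1 to 2 members were called. The differences then ran from 0.487 to 0.738 for Tgfb1, from -0.748 to -0.403 for Tgfbr1, from -0.15 to 0.0122 for Tgfb2, from -0.19 to 0.0819 for Tgfb3, from -0.00413 to 0.0418 for Ltbp1 and from -0.223 to 0.124 for Ltbp3, the last 4 changing sign. Ltbp2 (-0.00456 to 0.202) and Itgav (-0.265 to 0.0269) did so too. After cyclic loess Ltbp1 was at -0.00268, and after repeated quantile normalization Ltbp4 passed at 0.277. Leaving out the dimmer 50% of genes removed Tgfb2, Tgfbr3 and Eng. The cause of these changes was not tested. Scalings moved the median of all genes by under 0.1. Without detection calls, signal over background is unknown for the dim genes.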

Other observations

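Cd109, a co-receptor that binds TGFβ and limits its signalling, was chosen after its values were seen. It is also counted in the list for storage, activation and extracellular binding of TGFβ. It was read at 8.02 and 7.67 in untreated cells and at 8.35 and 10.07 after TGFβ. The TGFβ arrays had an SD of 1.22 (n = 2) against 0.25 in untreated cells. Its difference of 1.37 did not pass (limma adjusted p = 0.17). Acvr1b, the type I activin receptor, and Bmpr2, a type II BMP receptor, both chosen after their values were seen, differed by -0.41 (limma adjusted p = 0.085) and 0.34 (limma adjusted p = 0.15) without passing.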
